A study of Homo sapiens with 8 samples.

Results

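Levels of 10 circadian clock genes, NR1D1, NR1D2, PER1, PER2, PER3, CRY1, CRY2, CLOCK, DBP and BHLHE40, were followed in NS-SV-AC cells, an immortalised line labelled as human salivary gland acinar cells. The genes were listed by symbol, and every probe set that the platform's annotation pairs with 1 of these symbols alone was taken. This gave 23 probe sets for 9 of the 10 genes, out of 18239 genes measured in this way on the array. NR1D1 was listed only on a probe set that it shares with THRA, a neighbouring thyroid hormone receptor gene, and that probe set is attributed to neither gene. One group of cells received TNF-α, an inflammatory cytokine, at 20 ng/ml and was sampled after 2, 6, 12 and 24 h. The control group received albumin from bovine serum (BSA) in its place and was sampled at the same times. Each treatment and time had 1 array, so there were 8 arrays, 4 per treatment, all of 1 cell line. The labels name no treatment that sets the clocks of the cells to a common phase. Levels are log2 values, and a difference of 1 on this scale is 2-fold.

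The circadian clock is a loop of transcription factors that runs in most cells of the body. CLOCK and its partner BMAL1 bind E-box sequences and switch on the PER and CRY genes, whose proteins return to the nucleus and block CLOCK and BMAL1. A second loop runs through the nuclear receptors NR1D1 and NR1D2 (REV-ERB alpha and beta), which repress BMAL1, and outputs such as DBP act on further genes through D-box sequences. In cultured cells the same genes also react to serum and to signalling through kinases, with PER1 and BHLHE40 among the quick responders.

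Promoter windows of BHLHE40, NR1D2, PER1, PER3 and BMAL1 are shown, and each printed window holds a match of a motif searched for. NR1D2, PER3 and BMAL1 each have another window, not shown, with no match. The DBP window had no match and is not shown, and a CRY2 window with a match is not shown either. All are RefSeq windows of build GRCh38.p14, which run from 250 bases before to 50 bases after a transcription start. The 9 genes and NR1D1 together have 14 such windows. Motifs were searched on both strands, and capitals mark each match of the E-box CACGTG, the D-box TTATGTAA, the ROR response element TAGGTCA, the cAMP response element TGACGTCA and the NF-κB motif. The BHLHE40 window lies at chr3:4979187-4979486 on the plus strand, and the NR1D2 window at chr3:23945871-23946170 on the plus strand. The PER1 window lies at chr17:8152355-8152654 on the minus strand and the PER3 window at chr1:7784041-7784340 on the plus strand. The BMAL1 window lies at chr11:13277540-13277839 on the plus strand.
BHLHE40: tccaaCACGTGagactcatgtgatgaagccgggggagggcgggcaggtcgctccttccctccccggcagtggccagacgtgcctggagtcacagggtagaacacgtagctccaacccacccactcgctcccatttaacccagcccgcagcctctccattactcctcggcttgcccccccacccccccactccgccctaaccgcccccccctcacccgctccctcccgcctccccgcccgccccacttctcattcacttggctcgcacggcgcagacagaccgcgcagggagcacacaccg
NR1D2: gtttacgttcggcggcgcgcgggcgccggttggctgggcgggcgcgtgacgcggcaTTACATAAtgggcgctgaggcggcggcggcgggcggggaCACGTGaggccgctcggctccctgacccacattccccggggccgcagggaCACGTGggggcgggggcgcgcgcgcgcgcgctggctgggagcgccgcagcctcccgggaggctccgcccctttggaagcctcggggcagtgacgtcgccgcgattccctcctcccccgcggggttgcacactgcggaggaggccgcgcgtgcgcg
PER1: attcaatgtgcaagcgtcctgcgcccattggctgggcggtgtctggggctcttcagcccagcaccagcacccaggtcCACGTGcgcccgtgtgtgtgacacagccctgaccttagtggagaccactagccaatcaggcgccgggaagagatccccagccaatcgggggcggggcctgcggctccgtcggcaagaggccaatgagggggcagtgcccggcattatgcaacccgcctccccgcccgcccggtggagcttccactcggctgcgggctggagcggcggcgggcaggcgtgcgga
PER3: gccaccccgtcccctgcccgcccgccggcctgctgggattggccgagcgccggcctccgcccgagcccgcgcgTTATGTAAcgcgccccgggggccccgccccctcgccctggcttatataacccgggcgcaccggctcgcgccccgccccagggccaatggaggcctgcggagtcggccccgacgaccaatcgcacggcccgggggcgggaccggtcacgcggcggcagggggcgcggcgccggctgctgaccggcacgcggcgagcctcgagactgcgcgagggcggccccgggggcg
BMAL1: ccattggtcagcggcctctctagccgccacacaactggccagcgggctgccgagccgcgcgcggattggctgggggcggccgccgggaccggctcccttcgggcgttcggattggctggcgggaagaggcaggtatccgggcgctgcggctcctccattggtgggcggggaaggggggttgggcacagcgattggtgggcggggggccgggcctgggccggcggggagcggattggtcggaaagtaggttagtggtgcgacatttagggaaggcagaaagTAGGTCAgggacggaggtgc

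The E-box was found in 3 of the 14 windows, those of BHLHE40, NR1D2 and PER1, and in 7.23% of all 34943 windows. It starts 245 bases before the transcription start in BHLHE40, 155 and 105 bases before it in NR1D2 and 173 bases before it in PER1. The D-box was found in 2 of the 14 windows, in NR1D2 and PER3, against 0.89% of all windows. The ROR response element, which NR1D2 also binds, was found in 1 of the 14 windows, that of CRY2, against 1.85% of all, and in the BMAL1 window printed above. The cAMP response element and the NF-κB motif were found in 0 of the 14 windows, against 1.84% and 0.558% of all. These are matches of letters in short windows and carry no measurement of binding.

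The arrays differed in quality. For GAPDH, the 3′ probe set exceeded the 5′ probe set by 6.28 on TNF-α at 24 h and by 0.20 to 0.37 elsewhere. For ACTB this excess was 6.88 on TNF-α at 24 h and 2.59 to 3.47 elsewhere, with the 3.47 on BSA at 24 h. On BSA at 24 h the ACTB probe sets read 10.64 (3′) and 7.18 (5′), against 12.07 to 12.24 and 9.15 to 9.61 on the 6 arrays of 2 to 12 h. Over 49386 probe sets, TNF-α at 24 h correlated with the rest at 0.904 on average, and the remaining 7 arrays among themselves at 0.963 to 0.995. Every difference between TNF-α and BSA at 24 h rests on the TNF-α array of that time, and every 24 h change within BSA on the BSA array. The part of these readings in those values was not tested. NFKBIA, the inhibitor that NF-κB induces and a check that the cells responded, was 3.27 ± 0.09 higher in TNF-α over the 4 times (SE, limma adjusted p = 0.00802). Of 12 measured salivary acinar markers 1, SLC12A2, lay above the array median on all 8 arrays. The water channel AQP5, which defines secreting acini, read 3.88 to 4.13, below the array medians of 4.33 to 4.36. Of 8 epithelial markers KRT5 and KRT18 lay above the median on all arrays, and of 4 leukocyte markers 0 did. KRT5 was close to the median, at 4.40 to 4.78. KRT8 read 8.59 to 8.91 on the 6 arrays of 2 to 12 h and 6.37 on BSA at 24 h. It fell below the median only on TNF-α at 24 h, at 2.72. COL3A1, a fibroblast collagen, read 8.91 to 9.93, the 1 of 4 fibroblast markers above the median on all arrays. Of 3 myoepithelial markers ACTA2 and MYH11 lay above it on all arrays, at 4.54 to 5.58, and of 3 endothelial markers PECAM1 and VWF did, at 4.38 to 5.18.

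**Figure D1:**
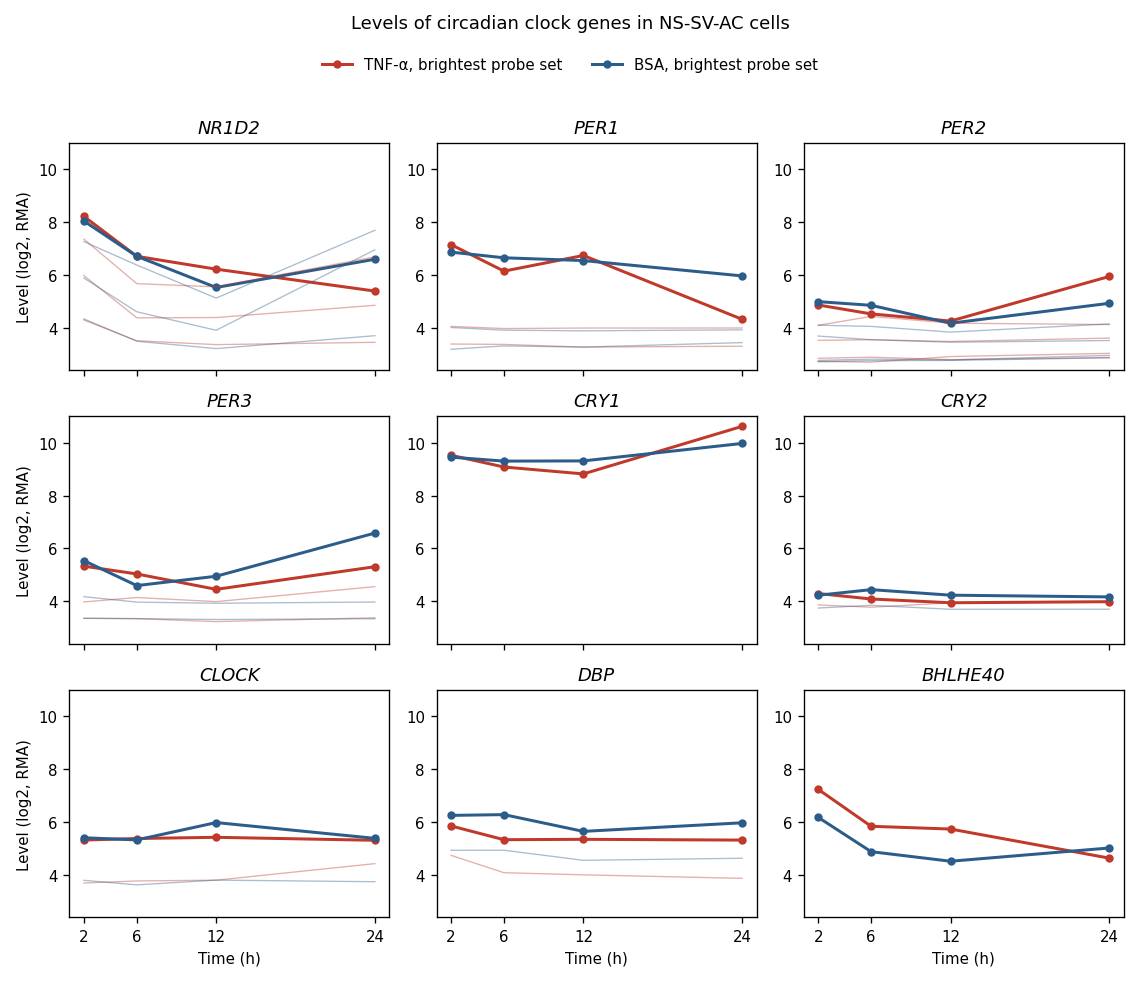
Levels (log2, RMA) of the 9 clock genes with a probe set of their own, against time (h), in TNF-α (red) and BSA (blue). Thick lines with points are the brightest probe set and thin lines the others, with 1 array per point. NR1D2 and BHLHE40 are highest at 2 h in both treatments over 2 to 12 h, and the BHLHE40 line of TNF-α lies above that of BSA at 2, 6 and 12 h.

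BHLHE40 (DEC1) encodes a repressor that competes with CLOCK and BMAL1 at E-boxes, and it was the clock gene with the clearest difference between treatments. It had 1 probe set, which read 7.24, 5.84, 5.74 and 4.64 in TNF-α and 6.18, 4.88, 4.52 and 5.02 in BSA at 2, 6, 12 and 24 h. TNF-α was the higher at 2, 6 and 12 h, by 1.06, 0.96 and 1.22, and the lower at 24 h, by −0.38. The ranges of the groups overlapped, because the level also declined with time in both: the TNF-α arrays at 6 and 12 h lay below the BSA array at 2 h.

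Over 2, 6 and 12 h BHLHE40 rose by 1.08 ± 0.08 in TNF-α relative to BSA (SE, 3 pairs of arrays, limma adjusted p = 0.0215). It was the 1 probe set of 23 that passed, against 0.199% of all 49293 probe sets tested, and 3 of 23 had an unadjusted p under 0.05 against 12.4%. Without the 6 h arrays the difference was 1.14 with adjusted p = 0.139, and without time in the model adjusted p = 0.844. Over all 4 times, with the 24 h pair included, it was 0.71 ± 0.30 (adjusted p = 0.69). By limma 0 of 23 probe sets passed over the 4 times, against 0.00406% of all, and 2 of 23 had an unadjusted p under 0.05 against 6.39%. Each pair of arrays is the only one of its time, so these p-values measure the spread between arrays, which may be technical. In such bulk RNA, fewer cells with a transcript and less of it per cell cannot be told apart.

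NR1D2 encodes REV-ERB beta, a heme-binding repressor of BMAL1, and it had the widest range over the BSA arrays of the 9 genes. Of the 23 clock probe sets 6 ranged over at least 2-fold in BSA, against 10.1% of all probe sets. The brightest of its 4 probe sets read 8.21, 6.70, 6.21 and 5.38 in TNF-α and 8.04, 6.70, 5.52 and 6.59 in BSA at 2, 6, 12 and 24 h. Both treatments were highest at 2 h, and their ranges overlapped. TNF-α minus BSA was 0.17, −0.0020, 0.69 and −1.21.

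Over 2 to 12 h the difference in NR1D2 was 0.29 ± 0.14 (SE, limma adjusted p = 0.471) and over the 4 times −0.08 ± 0.32 (adjusted p = 0.924). At 12 h 4 of 4 NR1D2 probe sets were higher in TNF-α, by 0.15 to 0.69. At 6 h 1 of 4 was higher. At 24 h 0 of 4 was higher, with differences from −2.10 to −0.25. After a further quantile normalisation the brightest was −0.88 at 24 h in place of −1.21. A gap between TNF-α and BSA was therefore not shown for NR1D2, whereas its change with time was large.

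The decline of NR1D2 from 2 h was found in both treatments. In TNF-α the brightest probe set changed by −1.51 at 6 h and −1.997 at 12 h relative to 2 h, and in BSA by −1.33 and −2.52. Tested over both treatments together, it fell by 1.42 ± 0.17 at 6 h (SE, limma adjusted p = 0.0234) and by 2.26 ± 0.17 at 12 h (adjusted p = 0.0208), each relative to 2 h. These 2 comparisons share the 2 h arrays, and they were chosen after the levels had been seen. With 1 array per treatment and time, their SE measures how far the treatments disagreed in the change with time. It does not measure a spread between repeated cultures, and this holds for each such comparison below.

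Of the other 3 NR1D2 probe sets, the third by brightness also passed, with changes of −1.44 ± 0.17 at 6 h (limma adjusted p = 0.0226) and −1.78 ± 0.17 at 12 h (adjusted p = 0.0329). The dimmest, below the median on all arrays, passed too, with −0.82 ± 0.09 at 6 h (adjusted p = 0.0226) and −1.03 ± 0.09 at 12 h (adjusted p = 0.0287). The second by brightness gave −1.29 ± 0.26 and −1.97 ± 0.26 and did not pass (adjusted p = 0.056 at both times). The decline to 12 h was thus seen on all 4 probe sets of NR1D2, which measure the same gene and are not independent.

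The 4 probe sets parted at 24 h in BSA. Relative to BSA at 2 h they stood at −1.45, 0.43, 1.07 and −0.64, from the brightest to the dimmest. All 4 were higher at 24 h than at 12 h. Whether NR1D2 in BSA had returned to its 2 h level by 24 h therefore depends on the probe set, and the reason was not tested. A straight line on log2 hours over the 4 BSA arrays, which misses a course that turns back, gave −0.50 ± 0.23 per doubling of time for the brightest probe set (limma adjusted p = 0.828). It was −0.96 without the 24 h array and −0.06 without the 2 h array.

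**Figure D2:**
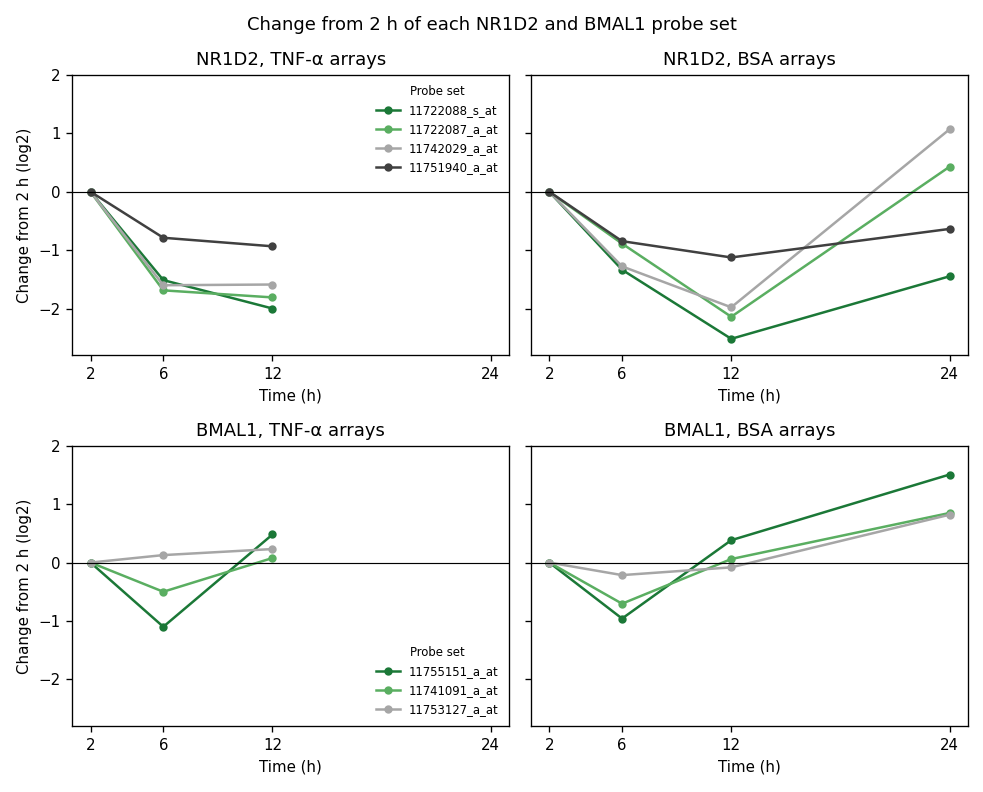
Change from 2 h (log2) of each probe set of NR1D2 (top) and BMAL1 (bottom) against time (h), in TNF-α (left, 2 to 12 h only, without the 24 h array) and BSA (right). All 4 NR1D2 probe sets are below their 2 h level at 6 and 12 h in both treatments, and in BSA they end at −1.45, 0.43, 1.07 and −0.64 at 24 h.

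BHLHE40 declined with NR1D2. Relative to 2 h it changed by −1.40 at 6 h and −1.502 at 12 h in TNF-α, and by −1.30 and −1.66 in BSA. Over both treatments it fell by 1.35 ± 0.10 at 6 h (SE, limma adjusted p = 0.0219) and by 1.58 ± 0.10 at 12 h (adjusted p = 0.0166). The difference between treatments in BHLHE40 was thus about as large at 12 h as at 2 h, on a level that had dropped in both.

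In all, 4 of the 23 clock probe sets, 3 of NR1D2 and that of BHLHE40, passed as lower at 6 h than at 2 h, and 0 passed as higher. Of all probe sets 4.01% passed, 2.44% lower and 1.57% higher, and at an unadjusted p under 0.05 it was 7 of 23 against 19.9%. At 12 h 4 passed as lower, again 3 of NR1D2 and BHLHE40, against 0.247% of all, with 0.44% in either direction. At an unadjusted p under 0.05 it was 10 of 23 against 14.1%. Counted without a test within TNF-α, 5 of 23 were at least 2-fold lower and 0 higher at 6 h than at 2 h, against 1.75% of all probe sets apart (0.807% lower, 0.941% higher). At 12 h it was 4 lower and 0 higher, against 1.89% (0.854% lower, 1.03% higher). Within BSA 3 of 23 were at least 2-fold lower and 0 higher at 6 h than at 2 h, against 1.13% (0.759% lower, 0.371% higher), and at 12 h 5 were lower and 0 higher, against 0.458% (0.264% lower, 0.195% higher). At 24 h in BSA 2 were lower and 2 higher, against 4.21% (1.6% lower, 2.6% higher).

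By limma 0 of 23 passed for the slope of BSA on log2 hours, where 1 of 23 had an unadjusted p under 0.05 against 4.70% of all. By limma 0 of 23 also passed for a difference in slope between TNF-α and BSA, and 0 of 23 had an unadjusted p under 0.05 against 4.25% of all.

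PER1, a repressor of the core loop whose transcription also responds to cyclic AMP, read 7.14, 6.14, 6.73 and 4.32 in TNF-α and 6.86, 6.64, 6.54 and 5.96 in BSA at 2, 6, 12 and 24 h. The BSA arrays came down step by step, and TNF-α lay on both sides of them. The differences were 0.28, −0.50, 0.19 and −1.64, so the only 1 past 2-fold was at 24 h. Over 2 to 12 h the difference was −0.01 ± 0.16 (SE, limma adjusted p = 0.991). The slope of PER1 in BSA was −0.23 ± 0.06 per doubling of time (unadjusted p = 0.0217, adjusted p = 0.828), the single clock probe set with an unadjusted p under 0.05. It was −0.34 without the 2 h array and −0.12 without the 24 h array. The other 2 PER1 probe sets lay below the median on all arrays and differed by −0.14 to 0.07 at 24 h.

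PER2, its close relative, read 4.86, 4.52, 4.25 and 5.94 in TNF-α and 4.98, 4.84, 4.17 and 4.92 in BSA on its brightest probe set. Levels stayed near the array median except on TNF-α at 24 h. The differences were −0.13, −0.32, 0.08 and 1.02, and over 2 to 12 h −0.12 ± 0.10 (SE, limma adjusted p = 0.658). Relative to 2 h, this probe set over both treatments was −0.71 ± 0.12 at 12 h (limma adjusted p = 0.0825). The other 4 PER2 probe sets were −0.14 to 0.12 in that comparison (adjusted p = 0.602 to 0.962). Of the 5 PER2 probe sets 3 were below the median on all arrays. At 24 h the same other 4 differed between treatments by −0.08 to 0.17, so the 24 h value is that of 1 probe set.

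PER3 read 5.33, 5.04, 4.45 and 5.31 in TNF-α and 5.54, 4.60, 4.95 and 6.58 in BSA on its brightest probe set. BSA was lowest at 6 h and highest at 24 h, where it stood 1.04 above 2 h. TNF-α minus BSA was −0.21, 0.44, −0.50 and −1.27, with no steady sign, and over 2 to 12 h −0.09 ± 0.18 (SE, limma adjusted p = 0.888). At 24 h a second PER3 probe set was 0.58 higher in TNF-α, against the −1.27 of the brightest.

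CRY1, a partner of the PER proteins in repression, read 9.53, 9.08, 8.82 and 10.62 in TNF-α and 9.46, 9.31, 9.31 and 9.97 in BSA. In both treatments the 24 h array was the highest. The differences were 0.07, −0.22, −0.49 and 0.65, and over 2 to 12 h −0.22 ± 0.12 (SE, limma adjusted p = 0.519). CRY2 read 4.29, 4.09, 3.95 and 3.99 in TNF-α and 4.23, 4.44, 4.23 and 4.17 in BSA, close to the array median. It differed by 0.06, −0.35, −0.29 and −0.18, with adjusted p = 0.508 over 2 to 12 h by limma, and its second probe set was below the median on all arrays.

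CLOCK, the activator with BMAL1, varied least of the 9 genes over the TNF-α arrays, by brightest probe set. It read 5.32, 5.38, 5.43 and 5.31 in TNF-α and 5.41, 5.33, 5.98 and 5.39 in BSA. The array of BSA at 12 h stood apart from the other 7, so that the differences were −0.09, 0.05, −0.56 and −0.07. After a further quantile normalisation the 24 h difference was 0.18 in place of −0.07. Over 2 to 12 h it was −0.20 ± 0.13 (SE, limma adjusted p = 0.586). The second CLOCK probe set differed by −0.10, 0.15, −0.0023 and 0.68.

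DBP, a D-box activator and a textbook output of the clock, was lower in TNF-α at every time. Its brighter probe set read 5.86, 5.34, 5.35 and 5.32 in TNF-α and 6.26, 6.28, 5.65 and 5.98 in BSA at 2, 6, 12 and 24 h. The ranges overlapped, since TNF-α at 2 h lay above BSA at 12 h. The differences were −0.40, −0.95, −0.30 and −0.65, and on the second probe set −0.19, −0.85, −0.55 and −0.76. That second probe set read 4.74, 4.09, 4.01 and 3.87 in TNF-α and 4.94, 4.94, 4.56 and 4.63 in BSA, with TNF-α at 2 h again inside the range of BSA. Both probe sets were thus lower in 4 of 4 pairs, which 9.28% of all probe sets were. Neither passed: over the 4 times the brighter gave −0.58 ± 0.13 (SE, unadjusted p = 0.007, limma adjusted p = 0.69) and over 2 to 12 h −0.55 ± 0.14 (adjusted p = 0.263), or −0.35 without the 6 h arrays. After a further quantile normalisation the 24 h difference of the brighter was −0.36 in place of −0.65.

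The probe set shared by THRA and NR1D1 read 4.06, 4.07, 3.73 and 3.60 in TNF-α and 3.98, 4.06, 3.91 and 3.74 in BSA. It was below the array median on all 8 arrays, and the groups overlapped. TNF-α minus BSA ran from −0.18 to 0.08, and limma gave an adjusted p of 0.912 over 2 to 12 h. Nothing can be said from it of NR1D1, the partner of NR1D2.

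**Figure D3:**
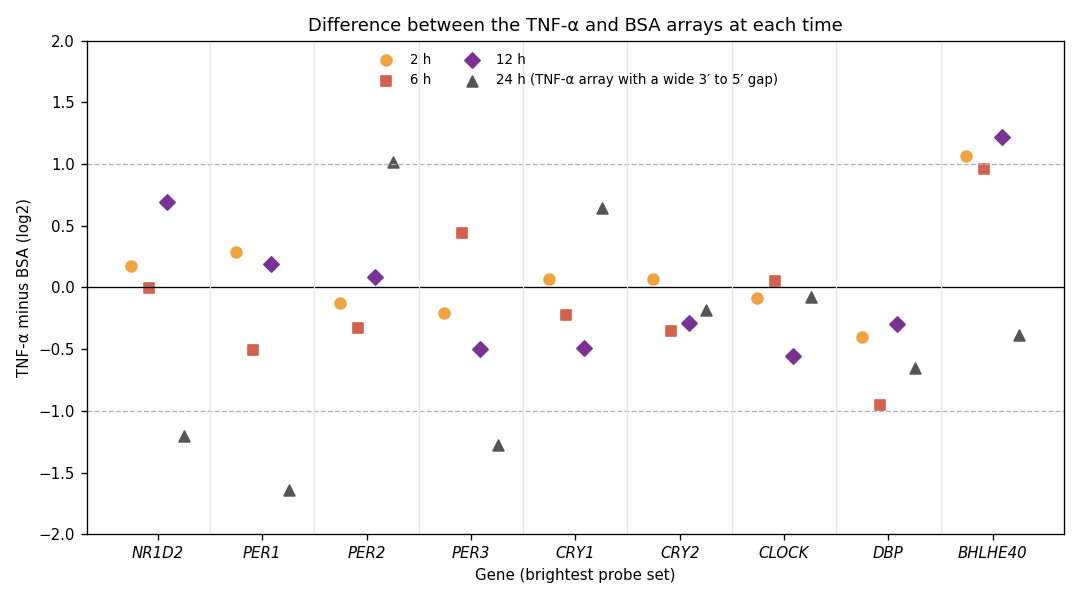
TNF-α minus BSA (log2) at 2, 6, 12 and 24 h for the brightest probe set of each clock gene, with 1 pair of arrays per point. Dashed lines mark 2-fold. BHLHE40 is near 1 at 2, 6 and 12 h, DBP is below 0 at all 4 times, and the other points past the dashed lines are at 24 h.

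Counted at single times without a test, 1 of the 23 clock probe sets was at least 2-fold higher in TNF-α at 2 h, that of BHLHE40, and 0 lower. Of all probe sets 0.42% were at least 2-fold apart at 2 h, 0.39% higher and 0.0304% lower. At 6 h the count was 0, against 1.42%, and at 12 h it was 1 higher, again BHLHE40, against 1.69% of all apart and 1.11% higher. At 24 h 1 was higher and 5 were lower, against 4.56% and 10.0% of all probe sets and 14.6% in either direction. The 5 were 3 of NR1D2 and the brightest of PER1 and PER3, and the 1 was the brightest of PER2. After a further quantile normalisation 3 of those 5 were under 2-fold, the 2 brightest of NR1D2 (−0.88 and −0.74) and PER3 (−0.96). The median difference of the 23 was 0.01, −0.0018, 0.06 and −0.08 at the 4 times, beside −0.01, −0.0024, 0.0011 and 0.13 over all probe sets. Over the brightest probe set of the 9 genes it was 0.06, −0.22, −0.29 and −0.38, beside −0.02, −0.01, −0.0043 and 0.20 over all genes. Of the 23 probe sets 8 lay below the median on all arrays, against 42.6% of all probe sets, and a change in such dim ones could be missed.

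Other parts of the clock were described through 30 further genes, of which 27 had a probe set of their own, 86 in all. Over 2 to 12 h 2 of the 86 rose in TNF-α and 0 fell by limma, against 0.172% and 0.0264% of all probe sets. Both measure KLF10, a TGF-β-inducible Krüppel-like factor and a clock-controlled gene. The brighter read 10.76, 9.47, 8.94 and 9.55 in TNF-α and 10.08, 8.47, 8.05 and 8.41 in BSA, higher in TNF-α in 4 of 4 pairs. It rose by 0.85 ± 0.09 over 2 to 12 h (SE, limma adjusted p = 0.0427), and the second by 0.97 ± 0.08 (adjusted p = 0.0273). The brighter lost the call without the 6 h arrays (adjusted p = 0.324), without the 12 h arrays (0.149) and without time in the model (0.879). At 24 h the 2 KLF10 probe sets differed in sign, 1.15 for the brighter and −0.66 for the other.

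Among the 5 measured genes of the positive limb 0 of 13 probe sets passed by limma over 2 to 12 h, against 0.199% of all, and 3 had an unadjusted p under 0.05, against 12.4%. NPAS2, which can stand in for CLOCK, read 5.45, 6.53, 6.47 and 5.35 in TNF-α and 5.51, 5.53, 5.34 and 5.34 in BSA. It differed at 6 and 12 h, by 0.997 and 1.13, and hardly at 2 and 24 h, by −0.06 and 0.0039. Over 2 to 12 h this brightest probe set gave 0.69 ± 0.23 (SE, limma adjusted p = 0.341), and without the 2 h arrays 1.06 (adjusted p = 0.00454). That last fit had 1 residual degree of freedom and left out a pair in which NPAS2 hardly differed. In it 1553 of all 49293 probe sets passed, against 98 with the 2 h arrays. Its second probe set differed by 0.09, 2.396, 1.74 and 1.38 (1.41 ± 0.41 over 2 to 12 h, limma adjusted p = 0.302). The brightest BMAL1 probe set read 6.03, 4.93, 6.51 and 7.79 in TNF-α and 6.08, 5.12, 6.46 and 7.59 in BSA. On it both treatments were lowest at 6 h and highest at 24 h. The other BMAL1 probe sets had this order in BSA but not in TNF-α. There the next by brightness read 4.87, 4.37, 4.95 and 4.24, lowest at 24 h. The dimmest read 3.04, 3.17, 3.27 and 3.52 in TNF-α, lowest at 2 h. On the brightest the treatments differed by −0.07 ± 0.08 over 2 to 12 h (limma adjusted p = 0.771). Over both treatments it fell by 1.03 ± 0.10 at 6 h relative to 2 h (adjusted p = 0.0224). In that comparison the next gave −0.60 ± 0.09 (adjusted p = 0.0356) and the dimmest −0.04 ± 0.11 (adjusted p = 0.912). At 12 h the brightest was 0.43 ± 0.10 above 2 h (adjusted p = 0.137). Over the 7 arrays without TNF-α at 24 h, NR1D2 and BMAL1 correlated at r = −0.18, and these arrays share their times and cells.

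None of the 6 probe sets of other repressors (BHLHE41, CIART and TIMELESS) passed over 2 to 12 h, and neither did any of the 7 of D-box factors (TEF, HLF and NFIL3) or of the 37 of kinases and ubiquitin enzymes. At an unadjusted p under 0.05 by limma these counts were 1, 2 and 6, against 12.4% of all probe sets. TEF, a relative of DBP, stood at −1.31 ± 0.17 at 12 h relative to 2 h over both treatments (limma adjusted p = 0.0542). Of the 23 probe sets of output genes 9 had an unadjusted p under 0.05, against 12.4% of all. Beside KLF10 the brightest of CDKN1A (0.79 ± 0.12, adjusted p = 0.138), KLF11 (0.60 ± 0.15, adjusted p = 0.273), NAMPT (0.58 ± 0.16, adjusted p = 0.28) and KLF9 (0.29 ± 0.08, limma adjusted p = 0.284) were higher in TNF-α in 3 of 3 pairs without passing. Of all probe sets 16.1% were higher in 3 of 3 pairs. CDKN1A encodes a cell cycle inhibitor and NAMPT the rate-limiting enzyme of NAD salvage.

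With time, 10 of the 86 other clock probe sets passed as lower and 4 as higher at 6 h than at 2 h, against 2.44% and 1.57% of all probe sets. Among the brightest of each gene these were KLF10 (−1.45 ± 0.11, limma adjusted p = 0.0219), KLF9 (−1.25 ± 0.09, adjusted p = 0.0219), BMAL1 and PPARA (−0.84 ± 0.12, adjusted p = 0.0313) on the lower side. CSNK1D, a kinase that marks PER proteins for decay, was the 1 on the higher side (0.57 ± 0.09, adjusted p = 0.0351). At 12 h 3 of the 86 passed as lower and 0 as higher, against 0.247% and 0.193% of all, and among the brightest these were KLF10 (−1.93 ± 0.11, adjusted p = 0.0166) and KLF9 (−0.87 ± 0.09, adjusted p = 0.0404).

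**Figure D4:**
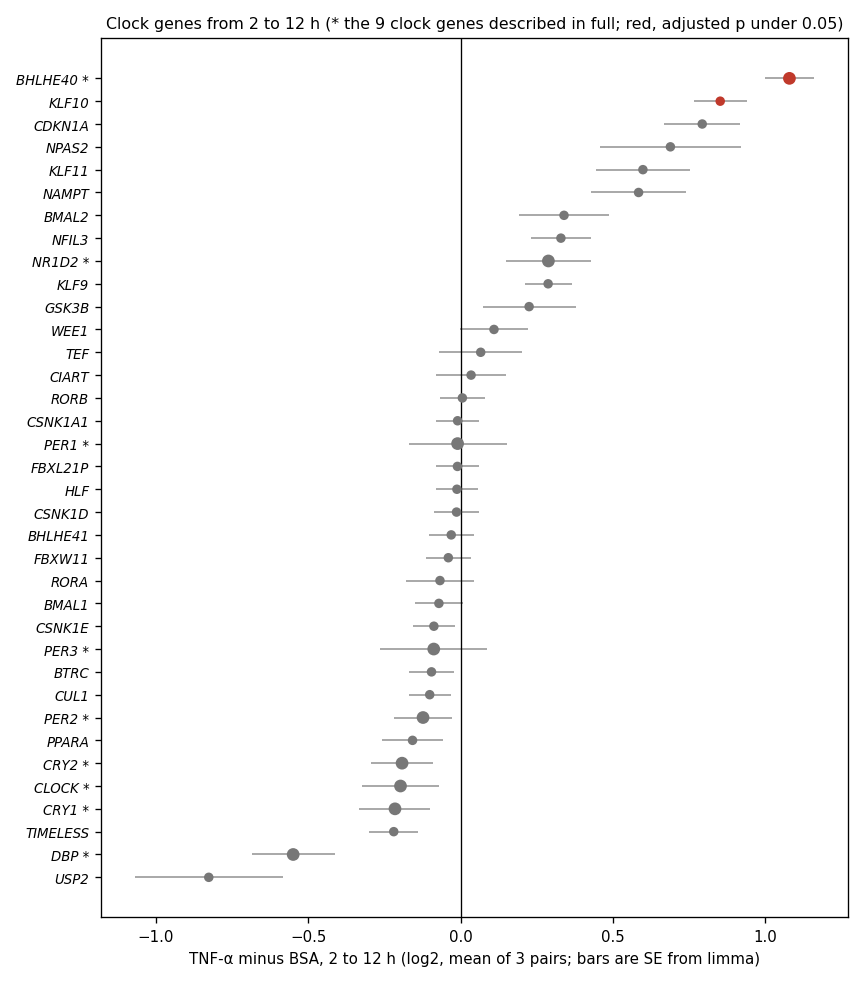
TNF-α minus BSA over 2 to 12 h (log2, mean of 3 pairs of arrays, bars are SE from limma) for the brightest probe set of the 9 clock genes (starred, larger points) and 27 further genes of the clock. BHLHE40 at 1.08 and KLF10 at 0.85 are the 2 in red that passed, and USP2 and DBP lie lowest without passing.

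The genes whose course was most like that of the 2 leading clock genes were looked for among 3151 genes, over the 7 arrays without TNF-α at 24 h, as a description. For NR1D2 they were IER2 (r = 0.956), MYC (r = 0.950), CSRNP1 (r = 0.943), DUSP5 (r = 0.935) and TEF (r = 0.924). For BHLHE40 they were KLF10 (r = 0.976), ZC3H12C (r = 0.965), MYC (r = 0.939), NAB1 (r = 0.936) and RND3 (r = 0.931). IER2, for example, read 7.51, 6.26 and 6.36 in TNF-α at 2, 6 and 12 h and 7.66, 6.14, 5.53 and 6.59 in BSA at 2, 6, 12 and 24 h. IER2 and MYC are known as early response genes, switched on quickly after a stimulus. MYC stands in both lists, and all these arrays share 1 cell line and the 2 h arrays at the high end.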

How the data were processed

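Gene expression was measured on 8 Affymetrix arrays, 1 per treatment and time. The deposited values are log2 levels per probe set, made by the authors with RMA per the submitters' processing notes; the software version was not given in the sources used. The array medians ran from 4.33 (BSA, 12 h) to 4.36 (TNF-α, 24 h) and the upper quartiles from 6.22 (TNF-α, 24 h) to 6.54 (BSA, 24 h). Whether the 8 arrays were normalised together was not given. Arrays give no read depth, and their number limits the precision. No further normalisation or filter was applied. Of 49386 probe sets, 93 array controls were left out. Of the 49293 tested, 45253 had 1 gene symbol in the platform annotation.

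Tests were run in limma 3.58.1 (R 4.3.3, lmFit and eBayes, two-sided) over all 49293 probe sets, with Benjamini-Hochberg adjustment and adjusted p under 0.05 counted as passing. TNF-α and BSA were compared with time as a factor over 4 times (3 residual degrees of freedom) and over 2 to 12 h (2). The slope of BSA used log2 hours over 4 arrays, and the difference in slope all 8. The comparisons of 6 h and 12 h with 2 h, with treatment as a covariate over 6 arrays, were added after the data had been seen. The comparison over 4 times, the slope of BSA and the difference in slope were tried on simulated data. The models over 2 to 12 h, and those of 6 h and 12 h against 2 h, were not. At single times differences of at least 1 were counted without a test. The brightest probe set, by the mean over 8 arrays, stands for a gene where 1 value is given. Named genes are all listed clock genes, the further clock genes that passed and up to 8 others, and the 5 most alike by Pearson's r for the genes with the largest BSA range and the largest TNF-α difference from 2 to 12 h. The genes, lists and tests were chosen with earlier results of these data known. Alternatives changed scaling, probe set choice, variance model, weights and arrays. Promoter sequences are from RefSeq (GRCh38.p14).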

Additional observations from a re-analysis of the deposited data

Results flagged for a closer look

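USP2, a deubiquitinating enzyme of the clock, differed in opposite directions at different times. TNF-α minus BSA was −1.56 at 6 h and 1.11 at 24 h, with levels of 5.40 and 5.81 in TNF-α and 6.96 and 4.71 in BSA. A second USP2 probe set differed by −1.48 at 6 h and −0.05 at 24 h. It rests on 1 array per treatment and time, and the 24 h TNF-α array is the one whose GAPDH probe sets stood 6.28 apart. The difference between these times was not tested.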

How the results depend on the processing

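Across the alternatives run, the difference of BHLHE40 from 2 to 12 h lay between 1.01 and 1.14 and passed in 8 of 10, with adjusted p from 0.00561 to 0.844. The falls of NR1D2 and BHLHE40 over both treatments passed in 6 of 6 alternatives each. Those 6 changed only scaling, probe set choice or the variance model. For these falls no arrays were left out, so their dependence on single arrays was not tested. The other 8 clock genes with a test of TNF-α from 2 to 12 h passed in 0 of 10 each. Small differences at single times that changed sign, such as CLOCK at 24 h (−0.07, or 0.18 after quantile normalisation), were not counted. Among the limma estimates of named genes run through the alternatives, signs turned in 4 cases. PER1 (−0.01) from 2 to 12 h was 0.0247 after quantile normalisation, 0.048 as the mean of its probe sets and −0.16 to 0.24 with the arrays of 1 time left out (0.24 without 6 h). PER2 (−0.12) was 0.0317 as the mean of its probe sets, and PER3 (−0.09) −0.35 to 0.12 with 1 time left out (0.12 without 12 h). The BSA slope of BHLHE40 (−0.36 ± 0.16, SE, limma adjusted p = 0.828) was −0.66 to 0.0698 (0.0698 without 2 h). The cause was not tested. Counts over all probe sets moved more. Over the 4 times 2 passed, and 4 with dim probe sets left out, 1 as mean per gene, 5 with a variance trend, 39 with array weights, and 0 to 98 with the arrays of 1 time left out (98 without 24 h, 0 without 2, 6 or 12 h). From 2 to 12 h 98 passed, and 36 as mean per gene, 286 with a variance trend, 8 with no replicate block (time left out of the model), and 7 (without 6 h) to 1553 (without 2 h) with the arrays of 1 time left out. At 6 h against 2 h 1976 passed, and 954 with the brightest and 815 with the mean per gene. At 12 h against 2 h 217 passed, and 111, 63 and, with a variance trend, 507. With the brightest or mean per gene 18239 genes were tested in place of 49293 probe sets. No treatment and time had a second array, so array noise and change of the effect with time cannot be told apart.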

Other observations

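The BSA array at 24 h also differed from that at 2 h in further clock genes, given as values with no test. Of the 86 other clock probe sets 4 were at least 2-fold higher and 4 at least 2-fold lower. The lower ones were USP2 (−1.51 and −1.23) and KLF10 (−1.68 and −1.82). The higher ones were RORA, BMAL1 and a pair of the 12 CSNK1A1 probe sets (1.29 and 1.08). The rest of CSNK1A1 ran from −0.38 to 0.77, with 0.77 on the brightest. RORA, an activator of BMAL1, stood 1.82 above its 2 h level on its brightest probe set, 0.96 on the second and 0.27 on the third. BMAL1 stood 1.51, 0.85 and 0.82 above 2 h on its 3 probe sets, and BMAL2, its relative, 0.76. Of all probe sets 2.6% were at least 2-fold higher and 1.6% lower between these 2 arrays. On TNF-α at 24 h BMAL1 read 7.79 on its brightest probe set and RORA 6.38, against 7.59 and 6.08 in BSA. The second BMAL1 probe set stood at −1.46 in TNF-α relative to BSA at 24 h, against 0.20 for the brightest. TIMELESS, a protein of replication forks whose place in the mammalian clock is debated, read 4.92 in TNF-α and 8.19 in BSA at 24 h, while its second probe set was 0.70 higher in TNF-α.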
